A study of Hydra vulgaris with 40 samples.

Results

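The 120 genes described here were chosen by their expression in *Hydra vulgaris* (*H. vulgaris*) because they were most highly expressed at 48 h of head regeneration, were more highly expressed in stage 10 than in stage 1 buds, and met limits on how far adult tissues differed. They are 120 of the 17438 genes measured. For each condition the mean of both samples plus 1 was taken. A gene qualified when its highest adult tissue was below 1.5 times the second, the second was below 2 times the next tissue in order, and the fourth was below 4 times the lowest. No limit was set between the third and the fourth tissue, and 1 was added to all means, so that a gene could qualify with low adult levels (rank 3, adult means of 0.285 to 1.26) or with high levels in 3 of the tissues (rank 7). These conditions on the adult tissues kept 12019 genes, of which 1331 were highest at 48 h among the 7 regeneration times and 871 of those had a mean level of at least 5 there. Requiring stage 10 to be at least 1.3 times stage 1 left 387 genes, and the 120 with the largest ratio of 48 h to 0 h were taken and ranked by it, so that rank 1 has the largest ratio. At the boundary, ranks 119 and 120 had ratios of 1.591 and 1.586, and the next genes outside had 1.583 and 1.581. The lowest stage 10 to stage 1 ratios inside were 1.308 and 1.312 and the highest outside were 1.299 and 1.293, while the lowest mean levels at 48 h inside were 5.14 and 5.33 and the highest outside were 4.75 and 4.65.

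The series holds 40 RNA-seq libraries, 2 biological replicates for each of 20 conditions, and its study examined opsin genes. For head regeneration, a single polyp per sample was cut at the border of regions R1 and R2 and left to regenerate, with samples at 0 h, then at 2, 4 and 6 h, and at 12, 24 and 48 h. The labels name the R2 to R3 region as the tissue then collected, and the methods of the study describe the apical part. For budding, the head regions of buds at stages 1, 3, 4, 5, 6, 7, 8 and 10 were collected, and the adult tissues were foot, budding zone, body column, hypostome and tentacles. Feeding was stopped at least 1 day earlier, and no strain, genetic change or drug is named in the labels. The number of animals behind a bud or adult sample is not given in the sources used here.

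*Hydra* is a freshwater cnidarian polyp with a mouth cone (the hypostome) ringed by tentacles at the oral end, a tube-shaped body column, and a foot that holds it to the substrate. After the head is cut off, the upper end of the remaining column reorganises and forms a new hypostome and tentacles, largely by reshaping existing tissue. In budding, which is asexual reproduction, tissue evaginates from the lower body column, lengthens, forms its own head and later a foot, and detaches. Both processes therefore build a head from column tissue.

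The identifiers are gene models of the *Hydra* 2.0 assembly. Only 2 of the 17438 identifiers occur in the study's list of opsins, and the 120 genes hold neither. Whether other opsins are among the 120 cannot be told from this. None of the 17438 identifiers matched the annotation table used here, so that no function, cell type marker or sequence is attached to the 120 genes. Genes are therefore called by rank, and the first 2 also by identifier.

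Values are TPM (a relative transcript abundance) adjusted by the authors, on a linear scale corrected for gene length. Sums per sample lay between 997030 and 1014380 and 164 to 1284 genes per sample were listed at 0, and the number of reads is unknown. Rank correlations between the samples of a condition ran from 0.914 in stage 3 buds to 0.981 in hypostome. Both samples of a condition had the same sorted values, except in bud stages 6 and 7, where replicate 1 of one stage shared them with replicate 2 of the other. Whether samples of stages 6 and 7 were exchanged before or during scaling cannot be told. Their stage labels, and values and slopes that rest on them, are therefore uncertain. For most of the 120 genes, the mean of the buds was close to that of the remaining libraries (median log2 ratio -0.02, SD 0.08, range -0.15 to 0.40), whereas regeneration and adult means differed freely (SD 0.65). Levels are therefore compared within the buds, and among regeneration and adult samples, but not between the buds and the others.

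The 120 genes were mostly of moderate abundance. Their mean level at 48 h ran from 5.14 (rank 44) through a median of 20.6 to 4001 (rank 94). At 48 h, 25 genes were below 10, 74 were between 10 and 100, and 21 were at 100 or more. The ratio of 48 h to 0 h was 2 or more in 63 genes and 4 or more in 11.

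Across head regeneration, the genes stayed near their starting level for 6 h, were higher at 12 h, and were higher again at 48 h. All regeneration times entered the choice of the genes, so these values are a description. The median gene had a level of 10.6 and 8.90 in the 0 h samples, 9.92 and 10.5 at 6 h, 13.5 and 13.0 at 12 h, 13.4 and 12.2 at 24 h, and 20.9 and 20.4 at 48 h. The median log2 difference from 0 h, taken on values plus 1, was -0.07 at 2 h, -0.04 at 4 h, 0.00 at 6 h, 0.42 at 12 h, 0.34 at 24 h and 1.03 at 48 h. Over all genes the same medians stayed between -0.06 and 0.00.

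**Figure D1:**
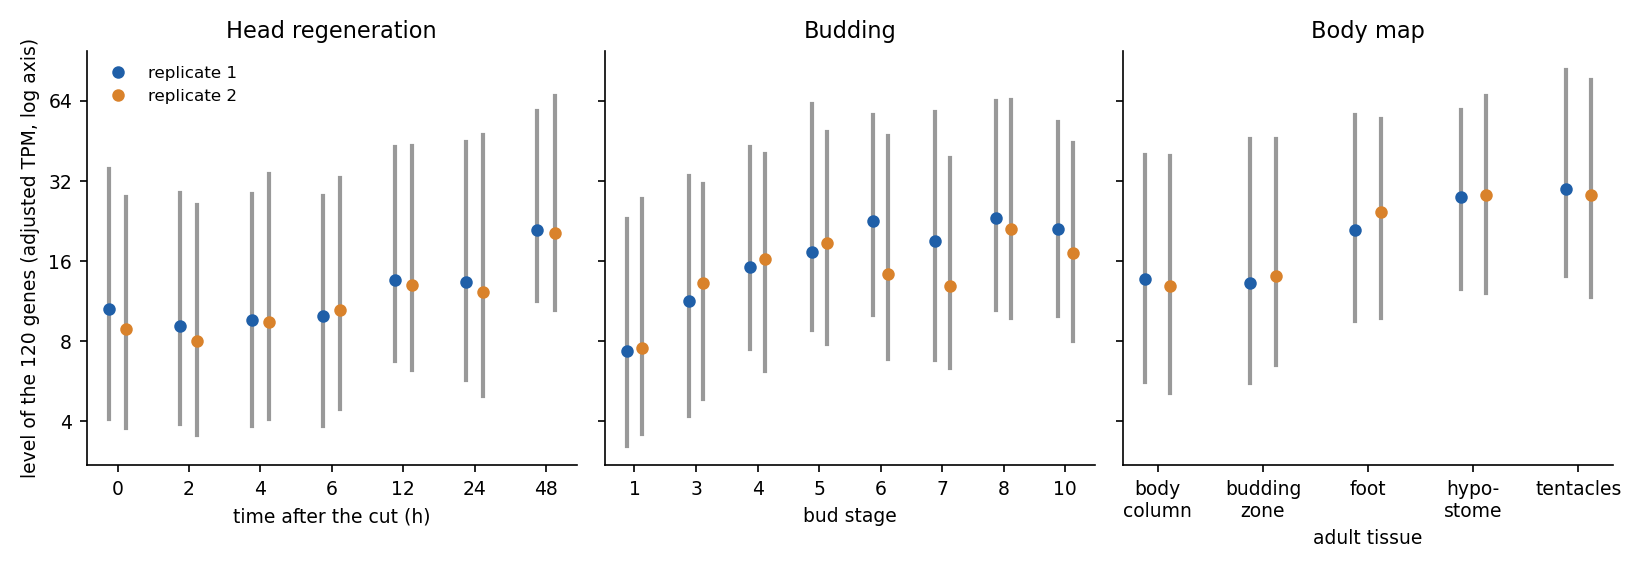
Level of the 120 genes in each of the 40 samples, in adjusted TPM on a log axis, by time after the cut, bud stage and adult tissue; points are medians over the genes, coloured by replicate, and bars run from the lower to the upper quartile. The medians are near 10 up to 6 h and 20.9 and 20.4 at 48 h, they are lowest at stage 1 among the buds, and they are higher in foot, hypostome and tentacles than in body column and budding zone. Buds are not comparable in level with the other panels.

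The genes mostly rose from 6 to 12 h, were lower more often than higher from 12 to 24 h, and were highest at 48 h, as the choice required. From 6 to 12 h, both later samples lay above both earlier ones in 79 of the 120 genes and below them in 9, against 22.8% and 33.1% of all genes. From 12 to 24 h, 19 genes were higher and 40 were lower in this sense, against 23.2% and 20% of all genes. From 24 to 48 h, 105 were higher and 0 were lower, against 27.9% and 28% of all genes. In 84 genes both 48 h samples lay above every other regeneration sample, which 10.1% of all genes did. Since the choice required the highest mean at 48 h, nothing is read from these last counts.

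The genes were sorted by the time at which they first reached 50% of their log2 difference between 0 and 48 h. This time was 12 h in 47 genes and 48 h in 48, whereas 10 genes reached 50% at 24 h and 15 between 2 and 6 h. At 12 h the median gene was at 44.6% (quartiles 17.7 and 64.6), close to this cut, so separate groups are not shown. In 39 genes both 12 h samples lay above every earlier sample and both 48 h samples above every 12 and 24 h sample, against 2.24% of all genes. The choice required the highest mean at 48 h, so this count is a description. In 9 genes (ranks 3, 7, 17, 50, 53, 87, 98, 103 and 118) all means from 2 to 24 h stayed within 0.3 of 0 h on the log2 scale. Rank 17 is also among the 39 genes, since its 12 h samples of 9.28 and 9.04 lay just above its highest earlier sample of 8.56. This flatness up to 24 h was found in 21.3% of all genes.

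Sc4wPfr_118.g25044, the gene of rank 1, was higher from 2 h on than at 0 h, and higher again from 12 h on. Its levels were 1.24 and 0.97 at 0 h, 3.18 and 3.4 at 2 h, 4.09 and 3.09 at 4 h, 3.07 and 4.52 at 6 h, 14.62 and 18.31 at 12 h, 12.37 and 8.30 at 24 h, and 21.05 and 18 at 48 h. Every sample from 12 h on lay above every earlier sample, the 24 h samples lay below those of 12 h, and the 48 h and 12 h samples overlapped. On means plus 1, 48 h was 9.75-fold above 0 h.

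Sc4wPfr_139.g208, the gene of rank 2, was close to the lower limit of the measurement before 12 h. It was listed at 0.48 and 0.00 at 0 h, 1.12 and 0.00 at 2 h, 0.00 in both samples at 4 h, and 0.37 and 0.00 at 6 h. It then had 2.75 and 3.27 at 12 h, 2.30 and 4.56 at 24 h, and 6.72 and 5.81 at 48 h. No sample from 12 h on overlapped with an earlier one, and both 48 h samples lay above all others of the course. The gene was one of 14 that were listed at 0 in at least 1 sample of the series.

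The gene of rank 7 is an example of the few genes that were flat up to 24 h. It ran from 1.15 to 2.22 in all 12 samples up to 24 h and had 11.27 and 9.89 at 48 h. The same gene was listed at 0 in both stage 1 buds and had 11.3 and 9.62 at stage 3, 38.12 and 32.23 at stage 8, and 22.85 and 21.44 at stage 10. In adult tissue it was at 1.28 and 1.27 in body column and 1.23 and 1.3 in budding zone, against 44.77 and 59.51 in foot, 53.55 and 67.90 in hypostome and 30.25 and 32.96 in tentacles. Its bud stage 7 samples disagreed, with 19.85 in replicate 1 and 0 in replicate 2.

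Among abundant genes, the gene of rank 20 had 351 and 348 at 0 h, 787 and 825 at 12 h, 611 and 538 at 24 h, and 1037 and 972 at 48 h. Its 48 h samples lay above every other regeneration sample. This was also true of rank 69, whose 0 h samples were 64.7 and 75.9 and whose 48 h samples were 140 and 138.

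In 117 of the 120 genes both 48 h samples lay above both 0 h samples, against 27.5% of all genes. The other 3 were ranks 8, 78 and 113. The gene of rank 8 entered through 1 sample, with 12.04 and 0.44 at 48 h beside 0.43 and 0.45 at 0 h. Rank 78 also overlapped, with 4.76 and 1.02 at 0 h and 4.12 and 8.24 at 48 h.

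**Figure D2:**
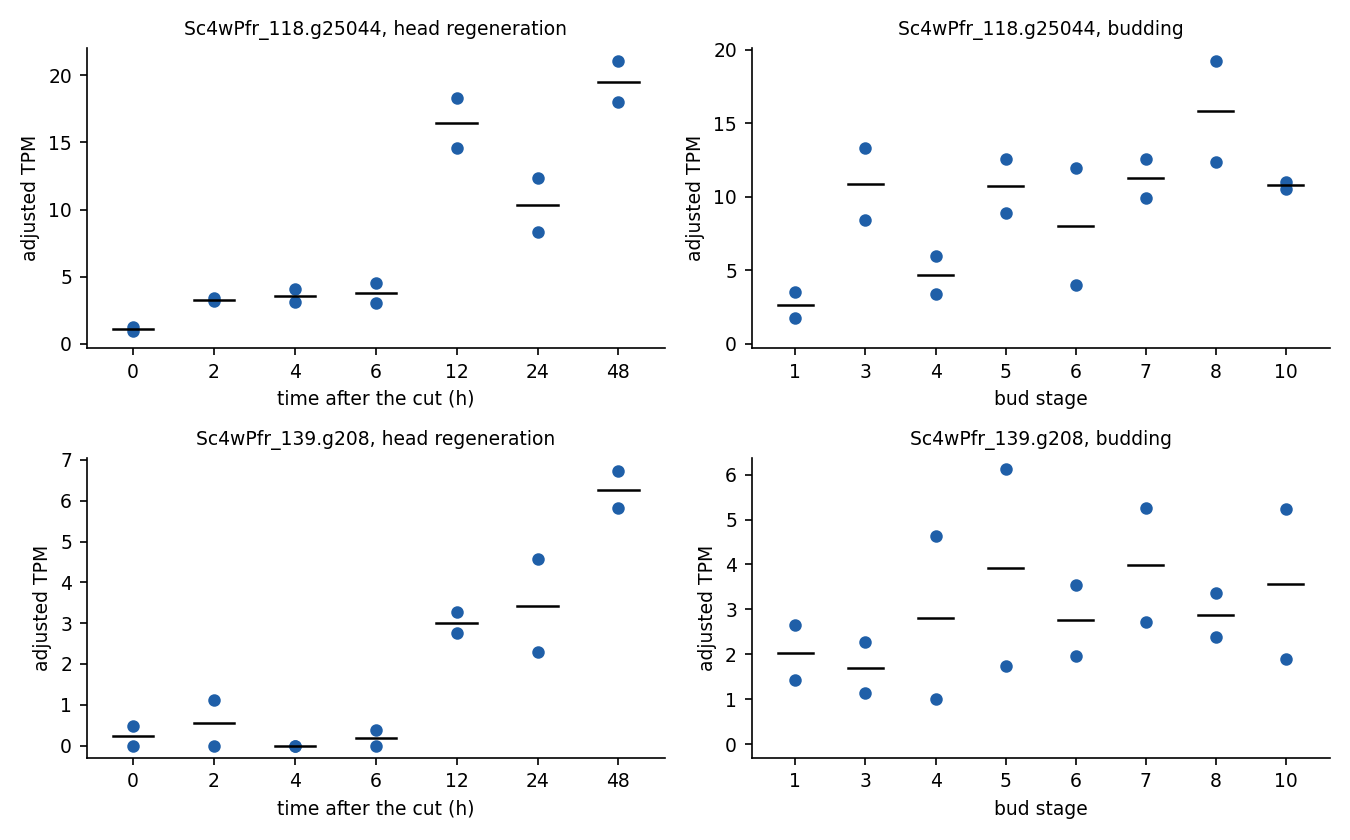
Adjusted TPM of Sc4wPfr_118.g25044 and Sc4wPfr_139.g208 in each sample of head regeneration (left) and budding (right); points are samples and bars are means of both. In regeneration both genes are higher in every sample from 12 h on than in any earlier one, whereas in budding the samples of a stage often differ as much as the stages.

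To read the regeneration difference in samples that had not chosen the genes, the rule was applied to one replicate of every condition and the ratio was read in the other. With the rule on replicate 1, the 48 h sample was above the 0 h sample in replicate 2 for 116 of the 120 genes taken, against 41.6% of all genes, and the median log2 ratio was 1.06 (quartiles 0.72 and 1.42). With the rule on replicate 2, this held in replicate 1 for 111 of 120 genes, against 43.3% of all genes, with a median of 0.77 (0.45 and 1.26). The lists chosen in this way shared 62 and 60 genes with the 120, so they are not a reading of the 120 themselves. The replicates of a condition were also corrected and scaled together, so the replicate that was read is not fully separate from the one that chose. There is 1 sample per time in each reading, so no test was made.

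The bud difference repeated less evenly. With the rule on replicate 1, stage 10 was above stage 1 in replicate 2 for 72 of 120 genes, against 59% of all genes, a share near the background, and the median log2 ratio was 0.23. With the rule on replicate 2, it was above in replicate 1 for 107 of 120 genes, against 53.4% of all genes, with a median of 1.03. The stage 10 to stage 1 difference was therefore close to the background in one direction of reading and above it in the other.

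**Figure D3:**
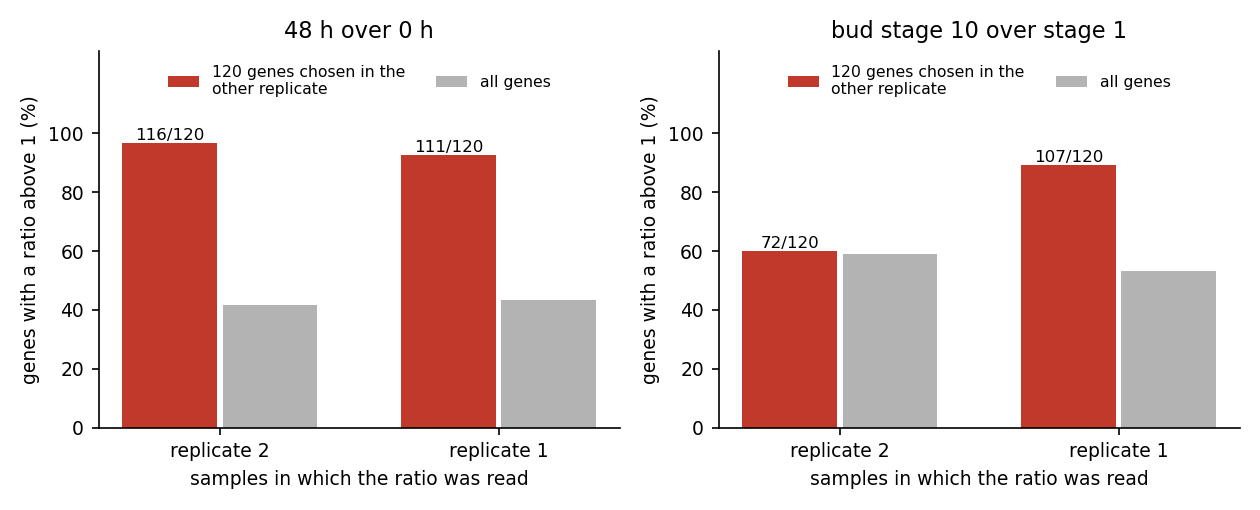
Share of genes (%) whose ratio of 48 h to 0 h (left) or of bud stage 10 to stage 1 (right) is above 1 in the replicate that was not used to choose them; red bars are the 120 genes taken in the other replicate, with their count, and grey bars are all genes. The regeneration bars (116 and 111 of 120) exceed those of all genes in both replicates, whereas for buds 72 of 120 in replicate 2 is near the 59% of all genes.

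In budding, the genes were lowest in the earliest buds, were higher by stages 4 and 5, and peaked at stage 8. Stages 1 and 10 entered the choice, so values against them are a description. The median gene had 7.36 and 7.56 in the stage 1 samples, 11.3 and 13.2 at stage 3, 15.2 and 16.2 at stage 4, 17.3 and 18.7 at stage 5, 22.6 and 14.3 at stage 6, 19.1 and 12.9 at stage 7, 23.3 and 21.2 at stage 8, and 21.2 and 17.1 at stage 10. These sample medians were close at stages 1, 4, 5 and 8 and far apart at stages 6 and 7, where replicate 2 was below replicate 1 in 83 and 84 of the 120 genes. Gene by gene, the mean absolute log2 difference between replicates was largest at stage 3 (0.84) and stage 10 (0.68), smallest at stage 8 (0.28), and 0.56 to 0.63 at stages 4 to 7.

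The median log2 difference from stage 1 was 0.39 at stage 3, 0.64 at stage 4, 0.86 at stage 5, 0.88 at stage 6, 0.71 at stage 7, 1.11 at stage 8 and 0.91 at stage 10. The highest mean fell at stage 8 in 68 genes, against 18.1% of all genes, and at stage 10 in 25. The lowest mean fell at stage 1 in 96 genes, against 25.5% of all genes. From stage 8 to stage 10, 10 genes were higher without overlap and 37 were lower, against 23.3% and 13.2% of all genes, so that most genes did not have their highest level in the oldest buds sampled. In 88 genes both stage 10 samples lay above both stage 1 samples, against 33.1% of all genes, and in the other 32 they overlapped.

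Bud stages 3 to 8 were not used to choose the genes, but they lie between the earliest and the oldest bud stages, which were. Over the 120 genes, the stage 8 to stage 3 difference had Pearson's r = 0.64 with the ratio of oldest to earliest buds. The slopes are therefore not independent of the choice, and their shares beside all genes are a description. A slope over the order of these 6 stages was fitted in their 12 samples for all 17438 genes with limma on log2(value + 1). No gene passed an adjusted p of 0.05 in either direction (0 of 17438, or 0%), and so 0 of the 120 genes did. At an unadjusted p under 0.05, limma gave 36 of the 120 genes with a slope above 0, or 30% against 5.15% of all genes (898 of 17438), and 0 with a slope below 0, against 425 of all genes. The slope was above 0 in 118 of the 120 genes, against 49.7% of all genes. Its median was 0.12 per stage (quartiles 0.06 and 0.21, range -0.05 to 0.51), against -0.00 over all genes. The only slopes below 0 were those of ranks 5 and 41.

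Without stages 6 and 7, whose sorted values cross between the stages, 218 of 17436 genes (1.25%) passed as rising, among them 5 of the 120 (ranks 22, 48, 7, 55 and 73, adjusted p from limma 0.018 to 0.049), and the median slope of the 120 was 0.16. The 5 genes were identified after their values were seen.

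Both stage 8 samples lay above both stage 3 samples in 83 of the 120 genes, against 27.4% of all genes, and below them in 1 (rank 78), against 13.6%. The median log2 difference was 0.74. For Sc4wPfr_118.g25044 the stage 3 samples had 8.4 and 13.28 and the stage 8 samples 19.26 and 12.39, which overlap, and the slope was 0.15 per stage (SE 0.10, adjusted p = 0.689 with limma). Sc4wPfr_139.g208 had 1.14 and 2.27 at stage 3 and 3.36 and 2.39 at stage 8, with a slope of 0.11 (SE 0.09, adjusted p = 0.758 with limma). Neither slope could be told from 0.

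The steepest slope was that of rank 50, 0.51 per stage (SE 0.16, adjusted p = 0.654 with limma), picked after its value was seen. This gene had 13.93 and 2.51 at stage 3, 19.87 and 39.74 at stage 4, 67.93 and 46.92 at stage 5, 96.14 and 26.82 at stage 6, 46.60 and 22.97 at stage 7, and 72.83 and 85.52 at stage 8. Every sample from stage 4 on exceeded both stage 3 samples, and the replicates of stages 6 and 7 differed more than those of stage 8. In regeneration the same gene was flat, at 21.87 to 34.02 in the 12 samples up to 24 h, and had 54.7 and 58.2 at 48 h.

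**Figure D4:**
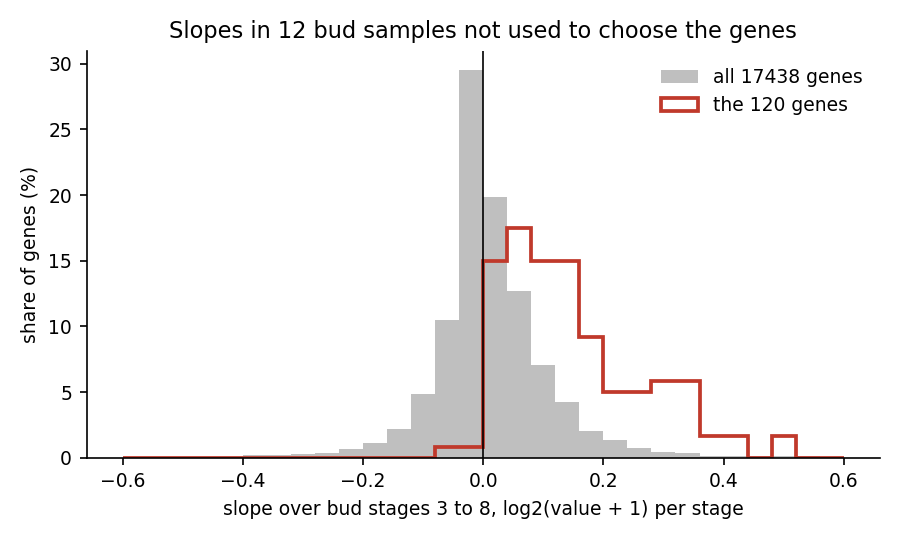
Slopes over bud stages 3 to 8, in log2(value + 1) per stage, fitted in 12 samples that were not used to choose the genes. The 120 genes were chosen by other stages of the same bud course, so their slopes are not independent of the choice. The grey histogram is all 17438 genes and the red outline the 120 genes, each as a share of its genes in %. The 120 genes lie almost wholly above 0 (118 of 120, median 0.12), whereas all genes centre on 0, and no gene passed the adjusted test.

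The bud slopes were set beside those of the nearest genes. The 267 further genes that met the same rule with a smaller ratio of 48 h to 0 h had a slope above 0 in 92.5% and a median of 0.07. The 484 genes that met all conditions but the bud ratio had a slope above 0 in 53.5% and a median of 0.00. The 6439 genes that met the adult tissue conditions and had a mean of at least 5 at 48 h had it in 42.7%, with a median of -0.01. These 484 genes had a stage 10 below 1.3 times stage 1, and in 227 of them stage 10 was still above stage 1. None of the differences between these lists was tested.

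In the adult polyp the genes were higher towards the ends of the body. The conditions on adult tissues limited how far the tissues could differ but not which tissue was highest, and the values are given as a description. The highest mean was in tentacles for 58 genes, in hypostome for 35, in foot for 14, in budding zone for 7 and in body column for 6. The lowest was in body column for 55, in budding zone for 31, in foot for 16, in tentacles for 12 and in hypostome for 6. The median level over the genes was 29.8 in tentacles, 28.7 in hypostome, 23.5 in foot, 13.3 in budding zone and 13.2 in body column. Among the 6439 genes under the same limits on adult tissues and level at 48 h (called broad in the plot of adult tissues) the order was different, and tentacles were the lowest tissue for 47.1% and the highest for 25.3%. Hypostome was highest for 26.1% of them, near the 29.2% of the 120 genes. Tentacles were highest for 48.3% of the 120 genes and 38.7% of all genes. Among the 267 further genes that met the rule this share was larger, at 65.5%, so it is not particular to the 120.

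Both hypostome samples lay above both body column samples in 90 of the 120 genes and below in 12, against 41.9% and 25% of all genes, and the median log2 difference was 0.72. For tentacles over body column the counts were 92 and 13, against 43.6% and 34.6%, with a median of 0.85. For foot over body column they were 71 and 18, against 25.2% and 29.7%, with a median of 0.45. Budding zone and body column were close, with 33 genes above and 25 below, against 26.8% and 14.8%, and a median of 0.05. Between the head tissues, tentacles were above hypostome in 58 genes and below in 35, against 37.6% and 35.9% of all genes, with a median of 0.17. Most of these comparisons share the body column samples. Whether such a difference reflects more cells of a type or more RNA per cell cannot be told apart in whole tissue.

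In 54 of the 120 genes every sample of foot, hypostome and tentacles lay above every sample of body column and budding zone. This was so in 9.2% of all genes and 6.6% of the 6439 broad genes. The reverse was seen in 3 genes (ranks 11, 46 and 77), against 9.15% of all genes and 14.2% of the broad genes. In 45 genes every hypostome and tentacle sample lay above every other adult sample, against 16.1% of all genes and 14.8% of the broad genes. The adult tissues entered the choice, which set no limit between the third and the fourth tissue and so allowed such splits. These counts are a description. Among the 267 further genes that met the rule, 74 (27.7%) had the foot, hypostome and tentacles apart and above in this way. Among the 484 genes without the bud ratio 45 (9.3%) had, against 45% of the 120 genes. Hypostome and tentacles above all other adult samples were found in 117 of the 267 (43.8%), a larger share than the 37.5% of the 120 genes. In the 484 genes this was found in 63 (13.0%).

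**Figure D5:**
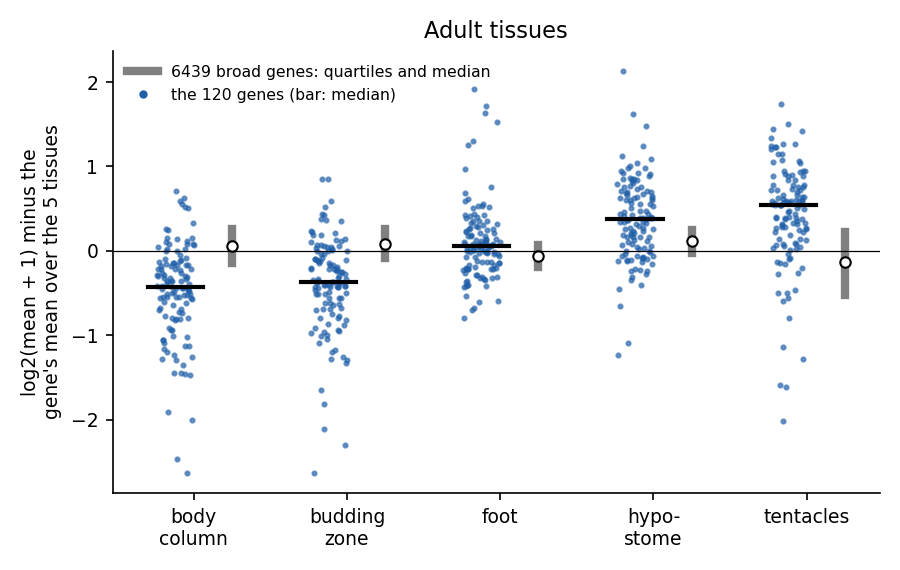
Adult tissue levels of the 120 genes as log2(mean + 1) minus the mean of the gene over the 5 tissues; blue points are genes and black bars their medians, and grey bars with open circles give the quartiles and median of the 6439 broad genes. Most of the 120 genes lie below 0 in body column and budding zone and above 0 in hypostome and tentacles.

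The gene of rank 4 shows the pattern of high ends. Its levels were 3.07 and 2.35 in body column, 2.28 and 4.19 in budding zone, 36.98 and 53.91 in foot, 42.27 and 38.91 in hypostome and 22.88 and 24.34 in tentacles. At 48 h of regeneration it had 14.42 and 12.35, above the 1.9 and 1.3 of 0 h and below every sample of these 3 tissues.

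The gene of rank 11 had the opposite adult pattern with a similar course in regeneration. It was at 21.63 and 19.26 in body column and 20.35 and 18.12 in budding zone, against 14.01 and 13.64 in foot, 9.86 and 11.62 in hypostome and 10.83 and 7.03 in tentacles. At 0 h it had 2.67 and 2.37, far below the intact body column, and at 48 h it had 12.66 and 15.19. Its 48 h level was thus above that of 0 h and still below the body column.

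The 0 h samples, whose level is the denominator of the ratio that ranked the genes, were below the intact body column in 55 genes and above it in 23 without overlap, against 26% and 33.7% of all genes, and a median log2 difference of -0.22. At 48 h, 94 genes were above the body column and 8 below, against 30.8% and 33.3% of all genes, with a median of 0.72. Against the hypostome, the 48 h samples were above in 41 genes and below in 47, against 21.6% and 42.2% of all genes, with a median of -0.05. The hypostome samples were above those of 0 h in 111 genes and below in 0, against 38.9% and 29.3% of all genes. The choice of the genes favoured low 0 h and high 48 h levels, and several of these comparisons share samples, so these values are a description and nothing is read from the counts.

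Of the 3 most abundant genes, ranks 94 and 114 shared the pattern of high foot, hypostome and tentacles, and rank 77 had the reverse. Rank 94 had 2269 and 2397 at 0 h, 3284 and 3491 at 12 h, and 3738 and 4264 at 48 h, with adult levels of 1878 to 2435 in the trunk and 2968 to 4228 in foot, hypostome and tentacles. Rank 77 varied widely between the samples of a time, with 776 and 1463 at 0 h and 849 and 2684 at 2 h, and had 1949 and 2226 at 48 h. It was lowest in tentacles, at 318 and 353, against 1139 and 1043 in body column. Ranks 94, 77 and 114, with mean levels of 4001, 2087 and 1219 at 48 h, dominated the summed level of the 120 genes, so the medians above are used in place of sums. Without these 3 genes, the summed level of the others was 3289 and 2997 at 0 h, 4906 and 4701 at 12 h, and 6991 and 6775 at 48 h.

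The bud difference and the adult pattern were set beside each other. Over the 120 genes, the log2 ratio of stage 10 to stage 1 and the log2 difference between the ends (foot, hypostome and tentacles) and the trunk (body column and budding zone) had Spearman's rho = 0.66 and Pearson's r = 0.69. The stage 8 to stage 3 difference, from samples not used in the choice, and the same end to trunk difference had rho = 0.54 and r = 0.52. The stage 8 to stage 3 difference was itself correlated with the stage 10 to stage 1 ratio (rho = 0.52, r = 0.64), so it is not independent of the choice. The log2 ratio of 48 h to 0 h had rho = 0.21 and r = 0.21 with the bud ratio, and rho = 0.16 and r = 0.25 with the end to trunk difference. The choice of the genes cut off the low values of both ratios and limited the tissue differences, so the sizes of these correlations are not compared. They are correlations across genes measured in the same libraries, and genes are not independent replicates.

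By group, the values were as follows. Among the 54 genes with high ends, the median log2 ratio of stage 10 to stage 1 was 1.60, the median bud slope over stages 3 to 8 was 0.18, and 47 had both stage 8 samples above both stage 3 samples. Among the 63 genes with neither pattern the values were 0.71, 0.09 and 36. The 48 genes that first reached 50% at 48 h had a median stage 10 to stage 1 log2 ratio of 1.23 and a hypostome over body column difference of 1.26. The 47 genes that first reached it at 12 h had 0.78 and 0.63. High ends were found in 29 of these 48 genes and in 21 of these 47. These groups were formed from the same data, and no test was made between them. The lists by time were split at a cut close to the median gene at 12 h, so they are not shown to be separate groups.

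By position, the 120 genes lie on 104 scaffolds of the 1527 that carry measured genes. Of these scaffolds, 91 hold 1 of the genes, 10 hold 2 and 3 hold 3. There is 1 pair with adjacent model numbers on a scaffold, ranks 26 and 85, and their log2 levels over the 40 samples had r = 0.34. All 17438 genes hold 10427 such pairs, and whether 1 is few or many for 120 genes was not tested. Rank 26 had 2.47 and 4.16 at 0 h and 12.59 and 8.32 at 48 h, and rank 85 had 63.67 and 59.00 at 0 h and 118.55 and 100.08 at 48 h. An annotated position was at hand for 1 gene, rank 90, which lies on scaffold Sc4wPfr_1 from 486928 to 500944 on the plus strand and has 10 exons. It had 24.21 and 23.40 at 0 h, 42.54 and 37.47 at 12 h, and 45.59 and 38.39 at 48 h.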

How the data were processed

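The deposited values were an adjusted signal on the TPM scale. To make it, the authors ran Trimmomatic 0.35, Bowtie 1.2 against a transcriptome and RSEM 1.2.31, and their TPM were then corrected for batch (ComBat) and scaled with qsmooth, a quantile method that works within conditions. The batches are not named in the sources used here. Since these steps draw the samples of a condition together, the spread between replicates, and p-values resting on it alone, may be too small. The p-values of the slopes also rest on how far the stages depart from a straight line. Whether these are too small cannot be told. The depth, and the precision it gives, are unknown.

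Columns were assigned to samples by name. The rule was applied to means of both samples plus 1. The members and lists were chosen with earlier results of these data known. Slopes over bud stages 3 to 8 were fitted with limma 3.58.1 in R 4.3.3 (lmFit, eBayes with trend) on log2(value + 1) for genes detected (above 0) in 2 or more of the 12 samples, two-sided, with Benjamini-Hochberg adjustment over all genes and a threshold of 0.05. The fit was tested on simulated data. The study's methods call the samples of a condition biological replicates, and for buds nothing says whether they came from separate animals. The p-values of the slopes therefore measure only the scatter of these samples about a straight line over the stages. Replicate numbers did not pair the bud samples, so no block was used. Named by identifier are the 2 genes with the largest ratio of 48 h to 0 h and up to 2 called as falling (none was). The other genes are named by rank where they mark a threshold, are adjacent, or are examples chosen after their values were seen. The alternatives were a pseudocount of 0.1, other filters, quantile and median-ratio scaling, a replicate block, and leaving out samples or stages. Python 3.11.15, pandas 2.3.3, numpy 2.4.6 and matplotlib 3.10.9 were used.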

Additional observations from a re-analysis of the deposited data

How the results depend on the processing

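Over bud stages 3 to 8, limma called 0 genes rising and 0 falling, and 0 of the 120, under a pseudocount of 0.1, both other filters, quantile normalization, median-ratio scaling, and without stage 3 (chosen after seeing the data). The replicate numbers do not mark paired samples (correlations of deviations between stages -0.26 to 0.36, 1 of 15 over 0.1), and the replicate block also gave 0 calls. Without stages 6 and 7, 218 genes rose and 70 fell, with 5 of the 120 rising. Stage 8 against stage 3 gave 17 rising and 17 falling, with 0 of the 120. Leaving out each sample in turn gave 0 to 2 rising genes, the 2 without stage 5 replicate 1. The cause was not tested. The slopes of both named genes stayed above 0 and past no threshold. The rule kept 107 of the 120 genes with a pseudocount of 0.1, 80 with quantile normalization and 96 with median-ratio scaling, 62 without replicate 2 and 60 without replicate 1. Leaving out 1 sample of stage 1, stage 10, 0 h or 48 h, chosen after seeing the data, kept 83 (without stage 10 replicate 1) to 107. Median-ratio scaling moved the median log2 difference of 12 h from 0 h to 0.57 and of 48 h to 1.17, and quantile normalization that of stage 8 from stage 3 from 0.74 to 0.55. These scalings shifted the median gene of a sample by -0.20 to 0.13 and -0.17 to 0.10 (log2). No direction reversed.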
